A study of Danio rerio with 18 samples.

Results

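Oxidative phosphorylation is carried out by complexes I to V of the inner mitochondrial membrane, and its subunits come from both the mitochondrial and the nuclear genome. The genes described here are the 13 rows with the accessions of proteins of the zebrafish mitochondrial genome and all rows whose zebrafish symbol begins with nduf, sdha to sdhd, uqcr, cox followed by a digit, or atp5. They make up 125 of the 32820 rows in either count table, and stand for 120 genes, since a few genes have more than 1 accession. The 112 nuclear rows stand for 107 genes and fall into 35 rows of complex I, 5 of complex II, 9 of complex III, 21 of complex IV, 22 of complex V and 20 of assembly factors.

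Complexes I and II pass electrons from NADH and succinate to ubiquinone, complex III hands them to cytochrome c, and complex IV, cytochrome c oxidase, gives them to oxygen. Complexes I, III and IV pump protons as they do so, and complex V, the ATP synthase, uses the resulting gradient to make ATP. Complex II is built from nuclear genes alone, while the other complexes need products of both genomes. Kidney tubule cells are known for many mitochondria, because ion pumps such as the Na,K-ATPase consume much of their ATP.

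The libraries came from pronephric ducts, the tubes of the embryonic kidney, of zebrafish embryos 30 hours after fertilisation. In 8 libraries the embryos had received antisense morpholinos that block translation of actl6a, which encodes a subunit of SWI/SNF chromatin remodelling complexes, and in 10 libraries a standard control MO. All embryos carried the transgene Na, K-ATPase alpha1A4:GFP, which marks the pronephros, and all injections were made at the 1-cell stage. For each collection 15 embryos were digested with collagenase and about 10 duct fragments were picked by their green fluorescence. The labels do not say whether a library holds 1 fragment or several, or whether libraries of a group came from separate injections, so the p-values below measure the spread between libraries. Each group was deposited as its own count table, so table and treatment cannot be told apart.

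Library totals were 1731521 to 3393310 counts in the actl6a libraries and 1564673 to 3301873 in the controls. The actl6a transcript itself was higher after the injection, at 139 ± 12.4 CPM (counts scaled to a common library total) in the actl6a libraries and 109.5 ± 15.6 CPM in the controls (SD, n = 8 and 10; log2 fold change 0.34, adjusted p = 0.0137) in edgeR's quasi-likelihood test, with p-values adjusted by Benjamini-Hochberg over all rows tested. A translation block need not lower a transcript. The pronephric cadherin cdh17 averaged 1121 and 1128 CPM in the actl6a and control libraries, and atp1a1a.4, the pump gene of the transgene's name, 1400.1 and 1614 CPM (log2 −0.21, adjusted p = 0.221). No pronephric marker out of 9 tested passed edgeR's test, DESeq2 or limma, with 2, 2 and 0 at an unadjusted p under 0.05, but without TMM scaling slc12a1 was called lower (log2 −0.57, adjusted p = 0.0482), and pax2a and slc4a4a had no counts under their symbols in any library. Control replicates 4 and 9 stood apart in their segment genes, with 8.45 and 10.7 CPM of the proximal endocytic receptor lrp2a where every other library had at least 113 CPM. RNA of other tissues was present too. Summed muscle markers ran over 424 to 12633 CPM in the actl6a libraries and 76.7 to 9656 CPM in the controls, with 0 of 10 tested called and 0 at an unadjusted p under 0.05 in edgeR, DESeq2 and limma. Blood, epidermal, neural and yolk or liver markers had median log2 fold changes of 1.503, 1.39, 2.02 and 2.31, and 0 of 7, 2 of 9, 1 of 2 and 4 of 4 of them were called higher. For blood, DESeq2 also called 0 and limma 3, with 0 at an unadjusted p under 0.05 in edgeR. The neural markers elavl3, gfap and tubb5 and the epidermal marker epcam had no counts under their symbols in any library.

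Of the 125 respiratory chain rows, 112 had enough counts to be tested, among them all 13 mitochondrial rows. The other 13 never had more than 18 counts in a library. Some of these are single-copy core subunits such as atp5f1c, and 12605 rows of the tables carry no symbol, so a low row is no measure of the gene. With an adjusted p of at most 0.05 as the threshold, 7 respiratory chain rows were higher and 10 lower in the actl6a libraries, together 15.2% of those tested, against 16.4% of all 14462 rows tested. The background was 7.9% for higher rows alone and 8.52% for lower rows alone. The median log2 fold change of the members was 0.04 and that of all rows 0.01. Without the TMM scaling of library totals the split was 4 higher and 15 lower, with 17.0% of all rows called and their median moved to −0.06. Leaving out control replicates 4 and 9 left the same 17 calls, with 16.0% of all rows called. Leaving out actl6a replicate 3 gave 4 higher and 10 lower, with 1896 of all 14772 rows tested called. A fit with the replicate number as a block called 3 higher and 8 lower, with 7.59% of all rows called. These are bulk samples, in which fewer cells of a type and less RNA per cell cannot be told apart.

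The mitochondrial genome. All 13 mitochondrial rows had a fold change above 0, with a median of 0.29 on the log2 scale and a range of 0.08 to 0.80, and 4 of them rose past the threshold while none fell, nor did DESeq2 or limma call any lower. The 4 were 30.8% of these rows, against 7.9% of all rows tested that were called higher. Only 2 were called with actl6a replicate 3 left out, where 1896 of all 14772 rows were called in either direction. With control replicate 1 left out 7 were called, with 2354 of all 14304 rows called. The 99 tested nuclear rows had a median of 0.02, with 3 higher and 10 lower, together 13.1% against 16.4% of all rows. Without TMM scaling 3 mitochondrial rows were called higher, with 17.0% of all rows called in either direction. The medians were then 0.21 (mitochondrial) and −0.05 (nuclear). The rows of 1 genome come from shared polycistronic transcripts, so they are not independent of each other.

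ATP8, a small membrane subunit of the ATP synthase, had the highest fold change. It had 962 CPM in the lowest, 1181 CPM in the median and 1394 CPM in the highest actl6a library, against 472, 601 and 1048 CPM in the controls. Of the actl6a libraries 7 lay above every control, and the eighth lay within the control range (log2 0.80 ± 0.15 SE, adjusted p = 0.00182). Its reading frame overlaps that of ATP6, the subunit that forms the proton path, so reads of both could be divided between them. ATP6 had 1614, 2078 and 2682 CPM in the actl6a libraries (lowest, median, highest) and 1313, 1625 and 2372 CPM in the controls. The groups of ATP6 overlapped and edgeR's test was not passed (log2 0.33, adjusted p = 0.0638). DESeq2 and limma did call ATP6 (adjusted p = 0.0181 and 0.0466), as did edgeR with DESeq2's size factors (0.0493) or with a filter at 10 CPM (0.0408).

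Among the 7 complex I subunits of the mitochondrial genome, which form part of the membrane arm that pumps protons, 3 rose. ND4L had 162, 190 and 221 CPM in the actl6a libraries (lowest, median, highest) and 107, 131 and 174 CPM in the controls, and 5 actl6a libraries lay above every control (log2 0.50 ± 0.10 SE, adjusted p = 0.00267). ND4L also overlaps its neighbour ND4, which did not pass (log2 0.19, adjusted p = 0.192). ND3 had 629.8, 943 and 1116 CPM in the actl6a libraries and 511, 692 and 982 CPM in the controls (log2 0.42, adjusted p = 0.0217). ND5 had 745, 973 and 1147 CPM in the actl6a libraries and 602, 738 and 1003 CPM in the controls (log2 0.35, adjusted p = 0.0314). Of the 10 controls 8 lay within the actl6a range for ND3 and 5 for ND5, and in both rows 3 actl6a libraries lay above every control. Without actl6a replicate 3 neither kept its call, with adjusted p values of 0.0510 for ND3 and 0.0584 for ND5. ND5 also lost it without any single one of actl6a replicates 7 and 8 and control replicates 2, 3, 5 and 7, with adjusted p values of 0.0507 to 0.0675. Without TMM scaling ND5 was not called either (log2 0.27, adjusted p = 0.0682). The same held without the libraries above 8000 CPM of muscle markers (adjusted p = 0.0513). ND2, ND1 and ND6 had log2 values of 0.29, 0.24 and 0.08 that did not pass edgeR's test. DESeq2 did call ND2 (adjusted p = 0.0264). Without control replicate 1 edgeR called ND2 and ND1 (adjusted p = 0.0167 and 0.0279), and without actl6a replicate 6 ND2 (0.0396). ND6 is the only one of the 13 encoded on the light strand, and its groups overlapped almost wholly, with medians of 842 CPM in the actl6a libraries and 813 CPM in the controls.

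CYTB, the mitochondrial subunit of complex III, had a log2 value of 0.30 (adjusted p = 0.156). The catalytic core of complex IV is encoded by COX1, COX2 and COX3, and these had log2 values of 0.18, 0.15 and 0.19 with adjusted p values of 0.446, 0.591 and 0.359. For all 3, every control lay within the actl6a range.

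**Figure D1:**
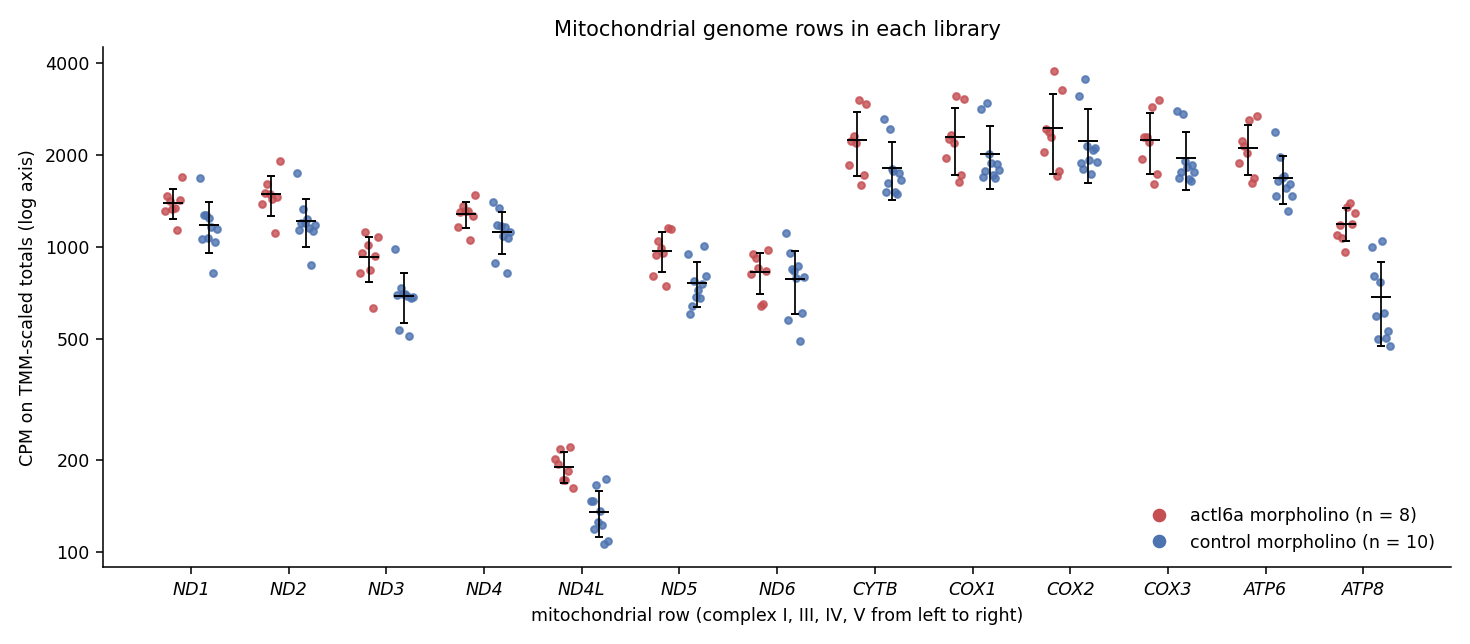
CPM on TMM-scaled library totals (log axis) of the 13 mitochondrial rows in 8 actl6a libraries (red, left of each pair) and 10 control libraries (blue, right); each point is 1 library, and bars give the mean and SD. ATP8 and ND4L show the clearest separation, with 7 and 5 actl6a libraries above every control, while the COX rows overlap; heights of different rows are not compared, since gene length was not used.

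The mitochondrial values, and those of the highest nuclear rows, have a limit in the files. The highest count of any row in any library was 6361, and the highest count within each library lay between 5392 and 6361, a 1.18-fold range, while the library totals varied 2.17-fold. COX2, the highest row, ran from 5392 to 6361 counts over the 18 libraries, whereas ND4L ran from 255 to 738 counts, a 2.89-fold range. The counts of the highest rows thus followed the library totals less than the low rows did, so dividing by the total gave them a high CPM in small libraries. The files and labels state no ceiling; a correction was added after this was seen, which takes 6561 (3 to the power of 8, just above the highest count) as the number of distinct tags a row can have. With it, 7 of the 13 mitochondrial rows were higher, ND2, ATP6 and CYTB being added with log2 values of 0.38, 0.52 and 0.51 and adjusted p values of 0.0496, 0.0126 and 0.0185. Among the pronephric markers atp1a1a.4 was called lower under it (log2 −0.39, adjusted p = 0.0264). ATP8 then had a log2 value of 1.00, and the median of the 13 was 0.38. All rows were called at 16.7% under that correction, and the nuclear count stayed at 3 higher and 10 lower. Nuclear members reached up to 5397 counts in a library and were corrected by up to 2.10 times.

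**Figure D2:**
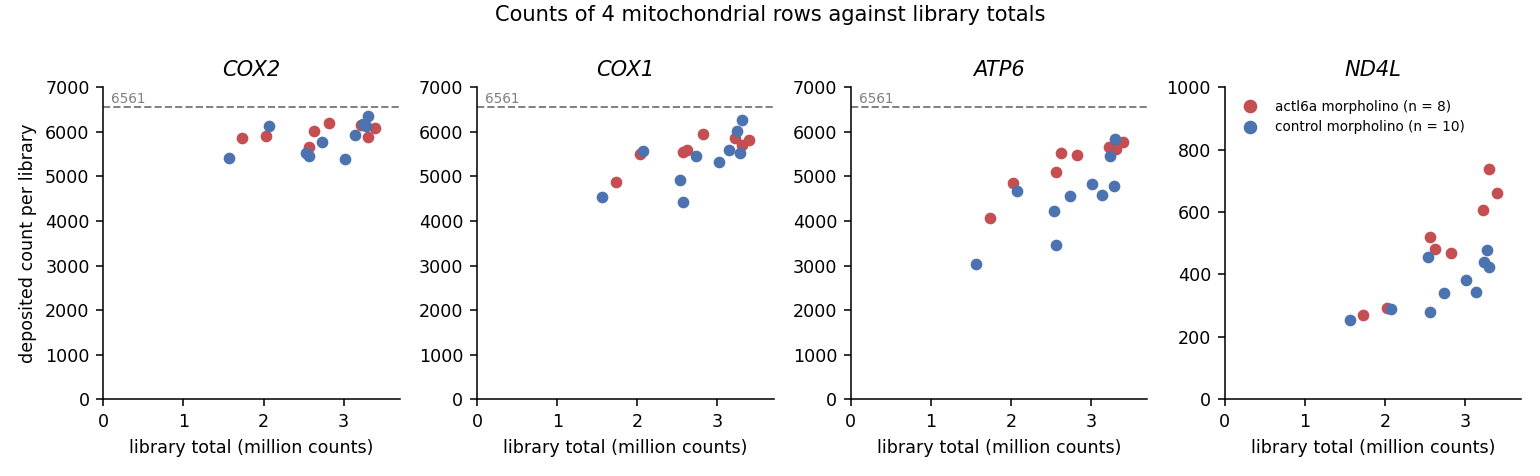
Deposited count (vertical) against the library total of counts (horizontal) for COX2, COX1, ATP6 and ND4L, 1 point per library, actl6a in red and control in blue; the dashed line marks the assumed ceiling of 6561 and the ND4L panel has its own vertical scale. COX2 stays between 5392 and 6361 counts at every library total, while ND4L, between 255 and 738 counts, grows with it.

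Summed over their rows, the mitochondrial genes held 1.85 ± 0.218% of the library total in the actl6a libraries and 1.63 ± 0.259% in the controls (SD, n = 8 and 10). The groups overlapped, 1 actl6a library lying above every control. The nuclear rows held 4.63 ± 0.232% in the actl6a libraries and 4.80 ± 0.403% in the controls, a difference of −0.168 percentage points that became 0.106 with TMM-scaled totals. The log2 ratio of mitochondrial to nuclear counts needs no division by the library total, but flattened high counts can lower it in large libraries. It was −1.33 ± 0.14 in the actl6a libraries and −1.57 ± 0.22 in the controls. All 8 actl6a libraries lay above the control median of −1.60, but 3 controls lay within their range and control replicate 1, at −1.12, lay above them all. With the 4 mitochondrial rows that stayed under 4000 counts, ND3, ND4L, ND5 and ND6, the ratio differed by 0.26, close to the 0.24 over all 13. With the ceiling correction the ratio was −0.69 ± 0.13 in the actl6a libraries and −1.03 ± 0.33 in the controls, a difference of 0.34. Then 1 control lay within the actl6a range. These sums were not tested, since the members were chosen with earlier results known.

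Nuclear subunits of complex I. Of 32 tested rows 1 rose and 3 fell (1 and 6 without TMM), with a median log2 fold change of 0.00. Together 12.5% of these rows were called, against 16.4% of all rows tested. The row that rose was ndufb3, an accessory subunit of the membrane arm. It had 419, 485 and 622 CPM in the actl6a libraries (lowest, median, highest) and 299.7, 368 and 445 CPM in the controls. Of the actl6a libraries 6 lay above every control (log2 0.46 ± 0.09 SE, adjusted p = 0.00291).

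The 3 that fell are core subunits of the arm that reaches into the matrix, where NADH is oxidised and electrons run along iron-sulphur clusters. For ndufs8a, which holds such clusters, values were 90.8, 113 and 139 CPM in the actl6a libraries and 112, 147 and 183 CPM in the controls (log2 −0.40, adjusted p = 0.0138). The largest subunit, ndufs1, had 141, 187 and 194 CPM in the actl6a libraries and 176, 225 and 293 CPM in the controls (log2 −0.33, adjusted p = 0.0166). The NADH-binding subunit ndufv1 had 276, 300.4 and 345 CPM in the actl6a libraries and 323, 354 and 425 CPM in the controls (log2 −0.24, adjusted p = 0.0251). In all 3 every actl6a library lay below the control median, with 4, 3 and 6 of them below every control. With the neural marker score as a covariate none of the 3 was called (adjusted p = 0.150, 0.205 and 0.223). With slc12a3 as a covariate ndufs1 and ndufv1 were not called (adjusted p = 0.0530 and 0.0699). Without the libraries above 8000 CPM of muscle markers ndufs8a and ndufv1 were not called (adjusted p = 0.0997 and 0.0764), with 1011 of all 14823 rows called. Other core subunits of the same arm did not pass, among them ndufs3 at −0.06, ndufs7 at 0.06 and ndufv2 at −0.03 on the log2 scale, chosen for naming after their values were seen. The paralog ndufs8b had at most 13 counts in a library and was not tested.

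Complexes II and III. None of the 5 rows of complex II was called by edgeR's test, DESeq2 or limma, and 0 had an unadjusted p under 0.05 in any of these. Without TMM scaling 1 of them, sdha, was called lower. The lowest p was that of sdha, the flavoprotein that oxidises succinate, with 209.7, 249.9 and 298 CPM in the actl6a libraries and 255, 274 and 382 CPM in the controls (log2 −0.17, adjusted p = 0.174). DESeq2 called 2 of the 9 rows of complex III higher and limma 1. In edgeR's test 1 rose, an accession of uqcrb, a subunit near the ubiquinone site. It had 57.3, 77.2 and 96.4 CPM in the actl6a libraries and 41.0, 58.8 and 74.8 CPM in the controls (log2 0.41, adjusted p = 0.0250). A second accession of uqcrb had a log2 value of −0.04 (adjusted p = 0.922), and the call was lost when accessions were summed per symbol, and without actl6a replicate 3 or 8. The Rieske iron-sulphur protein uqcrfs1 had a log2 value of 0.20 that did not pass edgeR's test (adjusted p = 0.0844).

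**Figure D3:**
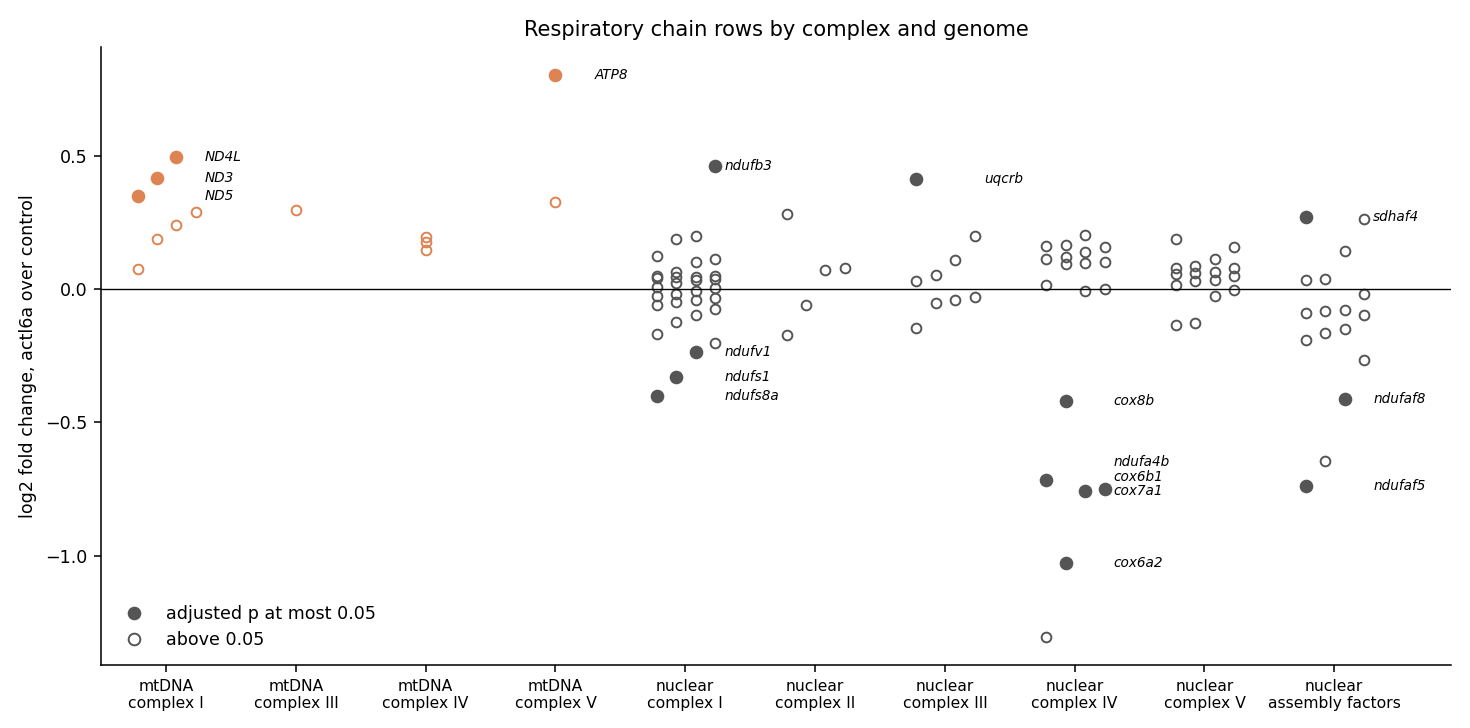
Log2 fold change, actl6a over control (vertical), of the 112 tested rows, grouped by genome and complex along the horizontal axis, with mitochondrial rows in orange and nuclear rows in grey; filled points have an adjusted p of at most 0.05 in edgeR's quasi-likelihood test and carry their symbol. All 13 mitochondrial points lie above 0, and the called points of nuclear complex IV lie between −0.42 and −1.03, cox6a2 being the lowest called point of all and ndufaf5, an assembly factor, lying at −0.74; the open point near −1.31 is cox4i2.

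Nuclear subunits of complex IV. None of the 19 tested rows rose and 5 fell in edgeR's test and in limma, DESeq2 called 1 higher and 5 lower, and the median over all 19 was 0.09, so most rows of this complex had small fold changes while a few stood well below 0. The 5 rows that fell in edgeR's test were 26.3% of those tested in this complex. Of all rows tested 8.52% were called lower and 16.4% in either direction. The largest fall was that of cox6a2. In mammals its ortholog is the heart and skeletal muscle isoform of a small subunit that lies beside the catalytic core. It had 53.7, 74.8 and 99.2 CPM in the actl6a libraries (lowest, median, highest) and 127, 159 and 199 CPM in the controls. No actl6a library reached the lowest control (log2 −1.03 ± 0.13 SE, adjusted p = 6.18e-05).

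The mammalian counterpart of cox7a1 is likewise a muscle isoform. It had 103, 127 and 167 CPM in the actl6a libraries and 176, 203 and 293 CPM in the controls, again without overlap (log2 −0.76 ± 0.12 SE, adjusted p = 0.000518). For cox6b1, a subunit on the intermembrane side, values were 152, 309 and 386 CPM in the actl6a libraries and 388, 453 and 691 CPM in the controls. The highest actl6a library and the lowest control differed little, but the groups did not overlap (log2 −0.75 ± 0.16 SE, adjusted p = 0.00466). Groups without overlap, with every actl6a library below every control, were found in 0.837% of all rows tested. Among the members they were found in 4 rows, these 3 and the assembly factor ndufaf5; in no member was every actl6a library above every control, against 0.933% of all rows.

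The fourth row that fell was ndufa4b. Its product belongs to the NDUFA4 family, which was first counted with complex I and is a subunit of complex IV in mammals. It had 97.6, 182 and 257 CPM in the actl6a libraries and 200.1, 281 and 403 CPM in the controls, and 6 actl6a libraries lay below every control (log2 −0.71 ± 0.16 SE, adjusted p = 0.00656). The fifth, cox8b, is named for another mammalian muscle isoform and had 94.2, 107 and 177 CPM in the actl6a libraries and 126, 155 and 178 CPM in the controls. In 7 actl6a libraries it lay below every control, while actl6a replicate 5 held the highest value of its group (log2 −0.42 ± 0.11 SE, adjusted p = 0.0131).

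Most of these rows have a paralog whose product takes the same place in the enzyme, and the paralogs did not pass edgeR's test. The fold changes of cox6a1 and ndufa4a were −0.01 and 0.02 on the log2 scale (adjusted p = 0.967 and 0.919), and the sign of both depended on the scaling. Those of cox7a2a and cox8a were 0.16 and 0.20 (adjusted p = 0.177 and 0.113, unadjusted 0.0576 and 0.0287). As a share of the counts of both paralogs, cox6a2 made up 12.3 ± 2.79% in the actl6a libraries and 22.1 ± 2.09% in the controls, without overlap of the groups. For cox7a1 against cox7a2a the shares were 11.5 ± 1.89% and 19.7 ± 2.64% in the actl6a and control libraries, also without overlap. For cox8b against cox8a they were 8.84 ± 1.48% and 13.1 ± 1.90%, with 6 actl6a libraries below every control. For ndufa4b against ndufa4a they were 15.5 ± 3.46% and 23.5 ± 4.62%, with 4 below every control. These shares need no division by the library total. A ceiling on the counts of the higher paralog would raise them in large libraries, and cox8a reached 3983 counts where cox8b reached 556. The pairs of cox5ab and cox5b2 in this complex differed by less than their spread, with cox5ab at 41.1 ± 1.47% of its pair in the actl6a libraries and 42.1 ± 2.13% in the controls, and cox5b2 at 11.7 ± 2.28% and 12.1 ± 2.18%. The shares were taken after the single genes had been seen and were not tested.

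**Figure D4:**
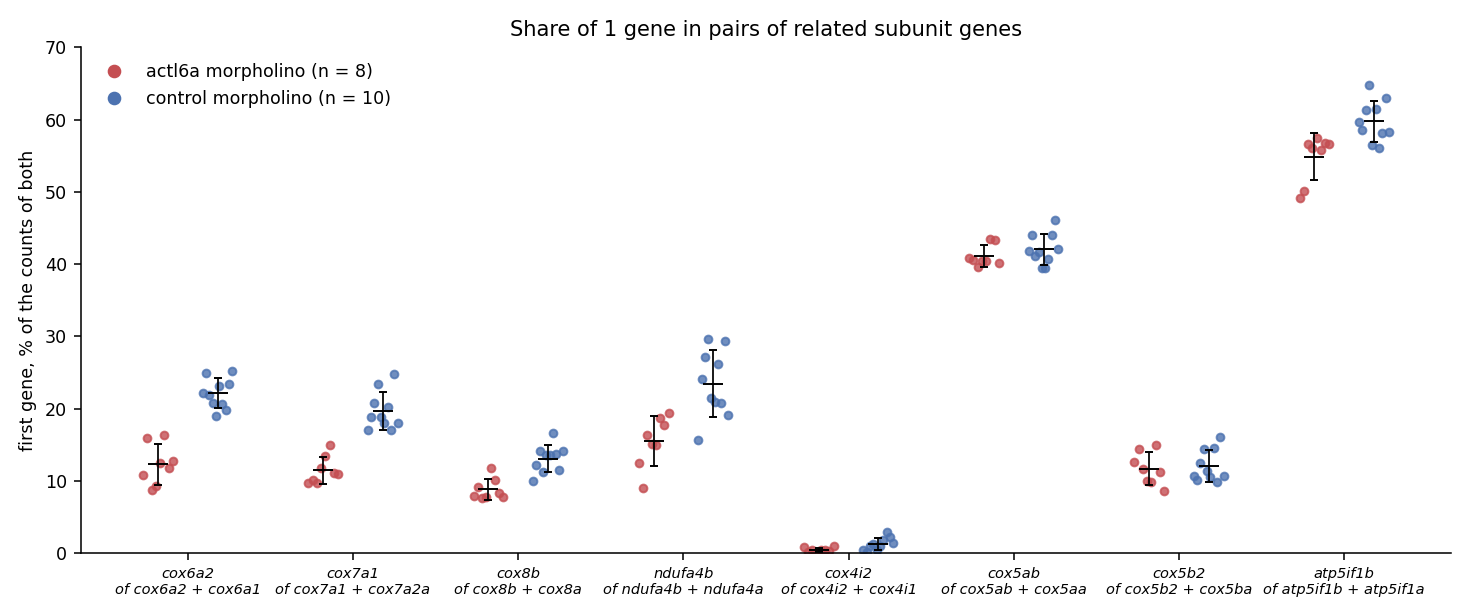
Share of the first gene in the counts of a pair of related subunit genes (vertical, percent) for 8 pairs; each point is 1 library, actl6a in red on the left and control in blue on the right, with the mean and SD. The cox6a2 and cox7a1 shares do not overlap between the groups, at 12.3% and 11.5% in the actl6a libraries against 22.1% and 19.7% in the controls, while the cox5ab and cox5b2 shares do.

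The low row cox4i2, whose mammalian ortholog is an oxygen-responsive lung isoform, had 0.369, 3.90 and 11.1 CPM in the actl6a libraries and 1.53, 10.7 and 24.7 CPM in the controls (log2 −1.31, adjusted p = 0.103). It did not pass, at counts of at most 65 in a library. A relative of ndufa4a that is hypoxia-induced in mammals, ndufa4l2a, had at most 18 counts and was not tested; it averaged 1.79 CPM in the actl6a libraries and 0.0951 CPM in the controls.

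Since several of the rows that fell are muscle isoforms in mammals, the muscle markers are set beside them. Summed, these were above 8000 CPM in 3 actl6a libraries and 2 controls, and myhz2, pvalb1, tnnt3a and ttn.2 had no counts under their symbols in any library. In the 3 muscle-rich actl6a libraries, replicates 1, 2 and 4, cox6a2 had 66.7, 94.4 and 57.1 CPM, within the 53.7 to 99.2 CPM of the other 5. In the muscle-rich controls, replicates 1 and 10, it had 131 and 163 CPM, within the 127 to 199 CPM of the other 8. With the muscle score as a covariate the log2 fold change of cox6a2 was −1.03 (adjusted p = 6.91e-05), and without the 5 muscle-rich libraries −1.02 (adjusted p = 0.00222). The calls of cox7a1, cox6b1 and ndufa4b were kept in both fits, and cox8b lost its call without those libraries (adjusted p = 0.110). Muscle was measured only through these markers, and its part in these results was not tested.

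Other measures moved with some of these rows. In both groups cox6b1 and ndufa4b were high in libraries with much slc12a3, the thiazide-sensitive sodium chloride cotransporter of the distal pronephros. For cox6b1 Pearson's r was 0.93 in the actl6a libraries (n = 8, exact permutation p = 0.000471, two-sided) and 0.82 in the controls (n = 10, permutation p = 0.00341), with Benjamini-Hochberg values of 0.00942 and 0.0170 over the 20 relations computed, on log2(CPM + 1). Spearman's rho was 0.90 and 0.81 in the actl6a and control libraries (permutation p = 0.00456 and 0.00712, adjusted 0.0304 and 0.0356). Without the 2 libraries farthest from the median of slc12a3, r was 0.78 and 0.50. In the controls these 2 were replicates 4 and 9, with 791 and 525 CPM of slc12a3. They also had the highest cox6b1 of all libraries (691 and 593 CPM) and the highest ndufa4b (403 and 374 CPM). The control relation of cox6b1 thus rests in part on them. For ndufa4b r was 0.90 and 0.84 in the actl6a and control libraries (permutation p = 0.0033 and 0.00238, adjusted 0.0170 for both), and 0.39 and 0.63 without the 2 farthest. Its rho was 0.74 and 0.85 (permutation p = 0.0458 and 0.003, adjusted 0.131 and 0.03). In the actl6a libraries the ndufa4b relation thus rests on replicates 1 and 2, which are lowest in slc12a3. For cox7a1 r was 0.45 and 0.76 (permutation p = 0.265 and 0.0111, adjusted 0.442 and 0.0444) and rho 0.48 and 0.75 (permutation p = 0.243 and 0.0170, adjusted 0.442 and 0.0680). Without the 2 farthest the r of cox7a1 was −0.18 and 0.33, so the relation in the controls rests on those libraries. For cox6a2 r was −0.27 and 0.17 (permutation p = 0.614 and 0.64) and rho −0.07 and 0.21 (permutation p = 0.882 and 0.56). For cox8b r was 0.24 and −0.08 (permutation p = 0.44 and 0.829) and rho 0.29 and −0.05 (permutation p = 0.501 and 0.89).

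The level of slc12a3 itself was 282 ± 98.5 CPM in the actl6a libraries and 392 ± 173 CPM in the controls and did not pass the test (log2 −0.47, adjusted p = 0.237). With slc12a3 as a covariate, a fit added after these values were seen, the log2 fold changes were −1.05 for cox6a2, −0.63 for cox7a1, −0.54 for cox6b1 and −0.49 for ndufa4b, and all 4 were still called. Against lrp2a the controls fall into 2 clusters, replicates 4 and 9 and the other 8. Replicates 4 and 9 had 293 and 276 CPM of cox7a1, the highest of all libraries. In the other 8 controls cox7a1 had a Pearson r of −0.76 with lrp2a (exact permutation p = 0.0304, adjusted 0.101) and a rho of −0.95 (exact permutation p = 0.00114, adjusted 0.0228); r was −0.92 without the 2 farthest. In the actl6a libraries r was 0.51 and rho 0.48 (n = 8, exact permutation p = 0.205 and 0.243), and the difference between the groups was not tested. For cox6a2 against lrp2a r was −0.39 in the actl6a libraries and −0.70 in the same 8 controls (exact permutation p = 0.364 and 0.0485, adjusted 0.485 and 0.139), with rho at −0.24 and −0.60 (exact permutation p = 0.582 and 0.132), and r was 0.33 and −0.23 without the 2 farthest. For cox6b1 against lrp2a rho was 0.24 in the actl6a libraries and −0.76 in the same 8 controls (exact permutation p = 0.582 and 0.0368, adjusted 0.685 and 0.123). For ndufa4b rho was 0.33 and −0.48 (exact permutation p = 0.428 and 0.243), and for cox8b 0.21 and −0.38 (0.619 and 0.36). Which segments of the duct each fragment held was not labelled, and its part in these results was not tested.

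**Figure D5:**
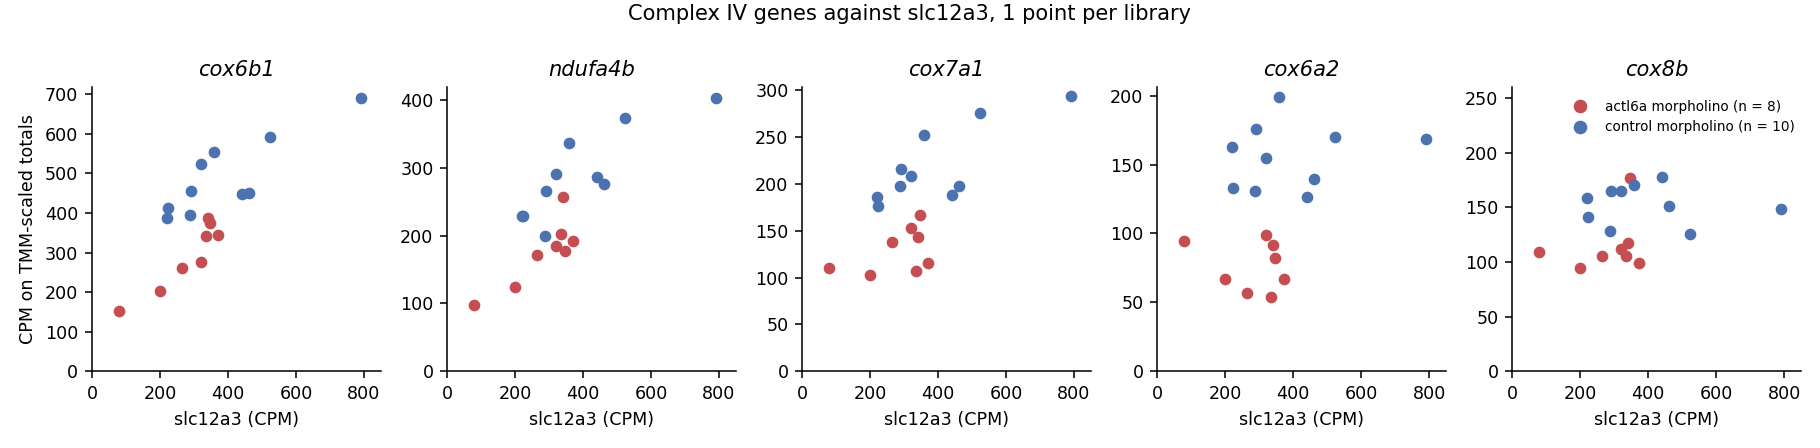
CPM of 5 complex IV genes (vertical) against CPM of slc12a3 (horizontal), 1 point per library, actl6a in red and control in blue. The cox6b1 points of both groups are higher at higher slc12a3, as are those of ndufa4b, though in the actl6a libraries the ndufa4b relation rests on 2 points. The 2 control points highest in slc12a3 are replicates 4 and 9, and without them Pearson's r in the controls was 0.50 for cox6b1 and 0.63 for ndufa4b. The groups share slc12a3 levels from 220.2 to 372 CPM, and their cox6a2 values do not overlap, lying between 53.7 and 99.2 CPM in the actl6a libraries and between 127 and 199 CPM in the controls.

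Summed yolk and liver markers lay above every control in 7 of the 8 actl6a libraries, with sums of 60.3 to 217 CPM in the actl6a libraries and 1.30 to 83.0 CPM in the controls. In a fit with their score as a covariate 4.12% of all rows were called and the median of all rows was −0.11. Of the 112 tested members 9 were called higher and 1 lower in it, so rows not called in the main fit were added. Of the 17 calls 4 were kept, those of cox6a2 (log2 −0.76, adjusted p = 0.0475), ND4L (0.67, adjusted p = 0.0341), ndufb3 (0.74, adjusted p = 0.0137) and sdhaf4. ATP8 was not called (log2 0.78, adjusted p = 0.104), nor was ndufaf5 (log2 −0.15, adjusted p = 0.592), while cox7a1, cox6b1, ndufa4b and cox8b had log2 values of −0.33, −0.18, −0.20 and −0.43 and were not called. With the scores of 4 other tissues as covariates 1.35% of all rows were called. Of the 17 calls 2 were kept, cox6a2 at −1.01 and ATP8 at 1.04 (adjusted p = 0.0373 and 0.0469), and ND4L and ndufaf5 were not called (adjusted p = 0.136 and 0.256). Where a marker score and the treatment run together this closely, their parts cannot be told apart.

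Nuclear subunits of complex V. None of the 17 tested rows of the ATP synthase was called by edgeR's test, and 2 had an unadjusted p under 0.05. limma called 0 and DESeq2 called 2 higher, 1 of them atp5if1a. The median log2 fold change was 0.06, with a range of −0.13 to 0.19. The lowest p was that of atp5if1a, an inhibitor that holds back ATP hydrolysis when the gradient collapses, with 564, 624 and 696 CPM in the actl6a libraries and 465, 537 and 653 CPM in the controls (log2 0.16, adjusted p = 0.127). Its paralog atp5if1b had a log2 value of −0.13 (adjusted p = 0.419). As a share of both, atp5if1b made up 54.8 ± 3.25% in the actl6a libraries and 59.8 ± 2.81% in the controls, and 4 actl6a libraries lay below every control. The subunit genes atp5fa1 and atp5f1b had log2 values of −0.03 and 0.09. A difference between the mitochondrial and the nuclear rows of complex V was not tested.

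Assembly factors. Of 17 tested rows 1 rose and 2 fell (0 and 3 without TMM), with a median of −0.09. Together 17.6% of these rows were called, against 16.4% of all rows tested. The row that fell most, ndufaf5, encodes a factor that hydroxylates a complex I core subunit. It had 40.7, 61.7 and 77.4 CPM in the actl6a libraries and 79.7, 98.6 and 150.2 CPM in the controls, without overlap (log2 −0.74 ± 0.13 SE, adjusted p = 0.00131). The partner of ndufaf5 in mammals is ndufaf8, and it had 70.4, 97.1 and 106 CPM in the actl6a libraries and 96.9, 121 and 151 CPM in the controls, with 4 actl6a libraries below every control (log2 −0.41, adjusted p = 0.00644). The complex II factor sdhaf4, which helps join the flavoprotein to its partner, had 184, 196 and 239.7 CPM in the actl6a libraries and 145, 164 and 204 CPM in the controls (log2 0.27, adjusted p = 0.0168). In 3 actl6a libraries it lay above every control. The complex IV factors cox10 to cox20 that were tested did not pass in either direction.

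Spread among the libraries differed between kinds of row. The median coefficient of variation of CPM was 10.4% in the actl6a libraries and 12.4% in the controls over 82 nuclear subunit rows, and 15.4% and 19.1% over the 13 mitochondrial rows. Over the 5680 tested rows with a mean of at least 50 CPM it was 16.9% in the actl6a libraries and 16.2% in the controls. The nuclear subunits thus had the lowest median variation of these 3 sets in both groups. The sets were not matched for expression level. COX2 counts varied only 1.18-fold, yet its CPM in the controls was 2214.5 ± 602. How much of the mitochondrial spread comes from dividing flattened counts by the library total was not tested.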

How the data were processed

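The authors deposited raw counts per RefSeq accession in a table for each group, and every sample column was used (0 were left out). Cutadapt, FastQC, STAR, featureCounts, edgeR and the GRCz11 build are named in the submitters' processing notes; versions and counting settings are not given in the sources used here. Accessions were matched to symbols through a RefSeq gene table of another assembly (20215 rows, 87.6% of counts). Of the nuclear members 101 matched with and 11 without the accession version; no coordinates or sequences were used.

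Rows were filtered by filterByExpr, scaled by TMM and tested with edgeR 4.0.16's quasi-likelihood test (two-sided, group as the only term, R 4.3.3), with Benjamini-Hochberg adjustment over 14462 rows and a threshold of 0.05. The code was tested on simulated data. Alternatives used limma 3.58.1, DESeq2 1.42.0, other scalings and filters, covariates and left-out libraries. Relations across libraries used log2(CPM + 1) and permutation tests in scipy 1.17.1 (exact for 8 libraries, 100000 resamples for 10). No 2 libraries of a group agreed within counting noise.

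Members, lists and tests were chosen with earlier results of these data known. Named genes were all 13 mitochondrial rows, in each nuclear group up to 4 called rows in each direction by lowest p (or the lowest p where none was called), a set of tissue isoforms and regulators, up to 2 called genes of each other list, actl6a and atp1a1a.4; others are named as chosen after their values were seen or as members of a described pair. Same-numbered libraries are not said to be pairs.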

Additional observations from a re-analysis of the deposited data

Results flagged for a closer look

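In 102 groups of values (51 measures, each in 8 actl6a libraries and 10 control libraries) 13 held a library whose distance from the nearest other library was large against the range of its group; chance alone gives about 1 in 20 groups. Control replicate 1 was the highest control in ND1 at 1682 CPM, in ND2 at 1741 CPM and in ND3 at 982 CPM, so the mitochondrial rows of this library account for 3 of the 13. Without it 7 mitochondrial rows were called higher in place of 4.

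Control replicate 4 was the highest control in sdha at 382 CPM, in ndufaf5 at 150.2 CPM, in the cycle enzyme idh3b at 166 CPM and in atp1a1a.4 at 2511 CPM. It is 1 of the 2 controls with little lrp2a. In the actl6a group replicate 8 was the highest in sdhaf4 at 239.7 CPM and in mrpl32 at 214 CPM, replicate 5 was the highest in cox8b at 177 CPM, and replicate 2 was the lowest in cs at 114 CPM. Control replicate 2 was the highest control in sdhaf4 at 204 CPM, and control replicate 1 the lowest in prkaa1 at 29.9 CPM. Without actl6a replicate 5 the log2 fold change of cox8b was −0.54, against −0.42 with it.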

How the results depend on the processing

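Leaving out each library in turn gave 4 to 10 higher and 10 to 11 lower respiratory chain rows, 2 to 7 mitochondrial rows higher and 5 to 5 complex IV rows lower. The medians were 0.23 to 0.36 (mitochondrial) and −0.01 to 0.04 (nuclear), the share differences 0.169 to 0.277 and −0.232 to −0.0940 percentage points, and the log2 ratio difference 0.20 to 0.29. The 4 higher and the 2 mitochondrial rows came without actl6a replicate 3, where 1896 of all 14772 rows were called. The 10 and the 7 came without control replicate 1, where 2354 of all 14304 rows were called. Instead of 7, the count of higher rows was 4 without TMM, 14 with DESeq2, 3 with the replicate block, 1 with scores of 4 other tissues as covariates, 2 with the epidermal, 21 with the neural, 3 with the pronephric and 9 with the yolk and liver score, and 4 without the muscle-rich libraries. Instead of 10, lower rows numbered 15 without TMM, 8 with the replicate block, 1 with the 4 scores, 6 with blood and 5 with epidermis. They numbered 3 with neural, 1 with yolk and liver, 7 with pronephros, 9 with ionocyte and 8 with slc12a3. Without the muscle-rich libraries they numbered 7. The calls over the whole table moved too. Of all 14462 rows tested 2375 were called in the main fit, 3049 with DESeq2, 622 with epidermis, 1863 with neural and 1359 with pronephros. With blood 1120 were called, with yolk and liver 596 and with the 4 scores 195. Without the muscle-rich libraries 1011 of 14823 rows were called. Instead of 4, mitochondrial rows higher numbered 2 with the block, 1 with the 4 scores, 2 with epidermis, 9 with neural, 1 with yolk and liver (ND4L), 2 with pronephros and 7 with the ceiling correction. They numbered 3 without TMM, with blood and without the muscle-rich libraries, 6 with DESeq2 and 5 with limma. Instead of 5, complex IV rows lower numbered 1 with the 4 scores, 3 with blood, 2 with neural and 1 with yolk and liver. The other lists had 45 different called rows without TMM, with lrpprc in 2 lists, and 24 with it. The mitochondrial median was 0.55 with the 4 scores, 0.55 with yolk and liver and 0.47 with neural, against 0.29 in the main fit. The nuclear median was 0.27 with yolk and liver, 0.14 with the 4 scores and 0.14 with neural, against 0.02. Other scores lowered the mitochondrial median, to 0.20 with epidermis, 0.25 with pronephros and 0.25 with ionocyte. The nuclear median was −0.02, −0.03 and 0.05 in these fits. The mitochondrial share difference was 0.4998 with the ceiling correction, and the nuclear one 0.106 with TMM-scaled totals. The causes were not tested. Single-tissue covariates, the slc12a3 covariate, the ceiling correction and the joint leaving out of libraries were chosen after seeing the data.

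The replicate block (replicates 1 to 8) called 3 higher and 8 lower, and the same 16 libraries without it 6 and 10; 7.59% of all rows were called with it. With the block ND3, ND5, ndufs1, ndufv1, uqcrb and sdhaf4 were not called (adjusted p = 0.125, 0.0667, 0.0512, 0.0725, 0.128 and 0.0929), nor were actl6a, nubpl, coa4, prkaa1, top1mt and mrpl32. Same-numbered libraries correlated between −0.12 and 0.32 and 0 of 8 fitted best with its own number, so the numbers were not taken as pairs. No named value past the threshold changed sign. Among uncalled ones, ND6 was −0.00062 without TMM, −0.029 with blood and −0.015 with ionocyte scores. With the 4 scores, neural, and yolk and liver scores, sdha was 0.088, 0.028 and 0.17, atp5if1b 0.073, 0.14 and 0.31, and atp1a1a.4 0.12, 0.097 and 0.297. For cox6a1 the value was 0.0106 with DESeq2 size factors, 0.0103 with DESeq2, 0.0022 with limma, 0.059 with the 4 scores, 0.00014 with muscle, 0.0030 with blood, 0.11 with neural, 0.044 with ionocyte, 0.23 with yolk and liver, 0.037 with slc12a3 and 0.0254 without control replicates 4 and 9, and −0.038 to 0.0254 with each library left out. For ndufa4a it was −0.060 without TMM, −0.012 without a filter, −0.0054 with limma, −0.047 with epidermis, −0.073 with pronephros, −0.0030 with slc12a3 and −0.025 with the ceiling correction, and −0.017 to 0.045 with each library left out. Counts near the ceiling limit the precision of the COX rows, CYTB and ATP6, corrected by up to 3.60, 2.58 and 2.49 times, and less so of ATP8, ND2 and ND1, by up to 1.88, 1.82 and 1.78 times. The highest nuclear rows are limited too, with a largest correction of 2.10 times.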

Other observations

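Other mitochondrial gene lists were counted in the same fit, beside 16.4% of all rows called. Of 61 tested genes of the mitochondrial ribosome, which translates the 13 mitochondrial messages, 0 rose and 3 fell in edgeR's test (12 had an unadjusted p under 0.05; limma and DESeq2 each called 1 higher, and without TMM 0 rose and 11 fell), with a median log2 fold change of −0.05. Its small subunit gene mrps33 averaged 168 ± 16.8 CPM in the actl6a libraries and 225 ± 28.7 CPM in the controls (log2 −0.42, adjusted p = 0.00317), and the large subunit gene mrpl32 averaged 184 ± 14.3 and 218 ± 20.2 CPM (log2 −0.25, adjusted p = 0.0210). Among 31 genes that copy, transcribe or translate mitochondrial DNA 1 rose and 2 fell (1 and 5 without TMM), with a median of −0.10. The elongation factor gfm1 was lower, at 39.3 ± 13.2 CPM in the actl6a libraries and 67.2 ± 13.5 CPM in the controls (log2 −0.76, adjusted p = 0.00844), and the mitochondrial topoisomerase top1mt was higher, at 39.1 ± 9.44 and 21.9 ± 8.92 CPM (log2 0.84, adjusted p = 0.0257). The top1mt call was lost without actl6a replicate 1 (adjusted p = 0.0582) and without control replicates 4 and 9 (0.0530). It was also lost without the muscle-rich libraries (0.0729) and without a filter on low counts (0.0515). Of 14 regulators of mitochondrial biogenesis 2 fell, the CREB coactivator crtc2 (log2 −0.67, adjusted p = 0.00159) and the AMP-activated kinase subunit prkaa1 (log2 −0.69, adjusted p = 0.00765).

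Of 28 assembly factors whose symbols lie outside the respiratory chain set 2 rose and 1 fell (2 and 4 without TMM), with a median of −0.10. The 2 that rose were nubpl, which delivers iron-sulphur clusters to complex I (log2 0.46, adjusted p = 0.0128), and coa4, a complex IV factor (log2 0.32, adjusted p = 0.0151). With the replicate block neither was called (adjusted p = 0.0677 and 0.106). Without a filter on low counts coa4 was not called either (adjusted p = 0.0662). Of 5 further subunits or partners 0 were called by edgeR, DESeq2 or limma, with 0, 1 and 1 at an unadjusted p under 0.05. Among 18 genes of the tricarboxylic acid cycle 1 rose and 1 fell (1 and 3 without TMM). The isocitrate dehydrogenase subunit idh3b averaged 168 ± 39.7 CPM in the actl6a libraries and 109.6 ± 22.2 CPM in the controls (log2 0.62, adjusted p = 0.00428), and citrate synthase, cs, 166 ± 22.7 and 223 ± 34.9 CPM (log2 −0.43, adjusted p = 0.00918). Of 24 glycolytic genes 4 rose and 1 fell (4 and 2 without TMM), the phosphoglycerate mutase pgam1b being lower (log2 −0.91, adjusted p = 0.00202) and the aldolase aldocb higher (log2 1.16, adjusted p = 0.00501). Of 30 genes of protein import and carriers 2 rose and 4 fell (1 and 9 without TMM), among these the cristae organiser immt (log2 −0.48, adjusted p = 0.00161) and the chaperonin hspd1 (log2 −0.45, adjusted p = 0.00586).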
